A study of Rattus norvegicus with 8 samples.

Results

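The genes described here encode the nuclear subunits of the mitochondrial respiratory chain and of ATP synthase, with the complex I assembly factors of the Ndufaf series. They were taken as every array probe whose transcript accession maps to a symbol beginning Nduf, Uqcr, Atp5 or Cox4 to Cox8, or to Sdha, Sdhb, Sdhc, Sdhd or Cyc1. Probes exist for 78 such genes. A total of 76 passed the filter on dim probes (the scanner's well-above-background mark in Cy3 or Cy5 on 4 or more of the 8 arrays), out of 9895 named genes and 24191 features that passed it. Complex I contributes 31 genes, its assembly factors 5, complex II 4, complex III 7, complex IV 14 and ATP synthase 15. Cox8c and Uqcrq did not pass. The rule uses symbols and detection and no measured difference, but it was set with earlier results of these data known.

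The liver RNA came from male Zucker diabetic fatty (ZDF) rats aged 12 weeks, either lean fa/+ animals, which carry a single fa allele, or obese fa/fa animals, in which the fa mutation of the leptin receptor disables leptin signalling throughout the body. Each genotype received vehicle or testosterone undecanoate (TU), a long-acting testosterone ester, injected under the skin at 20 mg/kg for 4 weeks, every 3 days at first and weekly later. The series asks whether testosterone acts on hepatic lipid metabolism in a leptin-dependent way. Each of the 8 arrays, 4 per genotype and labelled biological replicates, carried vehicle RNA in Cy3 and TU RNA in Cy5, with no dye swap. A dye bias of a probe therefore stays in every TU over vehicle ratio and cancels between the genotypes. The labels do not say whether each RNA sample is 1 animal, so p-values measure the spread between these samples only.

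As background, the respiratory chain oxidises NADH (complex I) and succinate (complex II), passes the electrons through ubiquinone, complex III and cytochrome c to complex IV, and pumps protons across the inner mitochondrial membrane. ATP synthase lets the protons back through a rotating ring of c subunits in its membrane part (Fo) and makes ATP in its catalytic part (F1). Liver is rich in mitochondria, and the subunit genes are transcribed in the nucleus under regulators such as NRF1, GABP, ERR alpha and their coactivator PGC-1 alpha.

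Some features of the arrays bear on the values and come first. The lean arrays shared slide 1 and the obese arrays slide 2, so that genotype and slide cannot be told apart in any obese over lean comparison. Between 50.4% and 69.1% of probes were well above background per channel. The 76 genes were well above background on all 8 arrays in both channels, except that Ndufs4 and Cox8b reached this on 7 arrays in Cy5. The log2 ratios of obese replicate 2 were the widest, with an SD of 0.46 over all features against 0.11 to 0.25 on the other arrays. On the replicate 1 arrays of both slides, spots in the centre of the array were dark. In Cy3, 10.8% of bright centre features on lean replicate 1 and 36.7% on obese replicate 1 lay over 2 log2 units below their median across arrays. On the other arrays at most 1.51% did. Ndufb3, Ndufb6, Ndufb10, Atp5f1c and Atp5pf have their spot there. As a check on the tissue, all 9 hepatocyte markers were well above background on every array, and so were all 9 macrophage markers. In bulk liver, fewer cells of a type and less RNA per cell cannot be told apart.

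Promoter sequences are shown for 5 genes on which the comparisons below turn: 4 that were called higher in obese liver and Atp5me, which had the highest TU ratio in obese liver. The sequences are from RefSeq (rat assembly GRCr8) and run from 250 bases before the annotated start to 50 after it, on the strand of the gene. Capitals mark matches to 4 motifs searched on both strands: NRF1 as GCGCA, any base and then GCGC, GABP as CCGGAAG, YY1 as GCCATNTT and ERR as TNAAGGTCA. The windows are Ndufs8 at chr1:210573649-210573948 (minus strand), Uqcrc1 at chr8:118467973-118468272 (plus), Atp5mc2 at chr7:135678169-135678468 (minus), Atp5f1b at chr7:1099808-1100107 (plus) and Atp5me at chr14:1464610-1464909 (plus).
Ndufs8: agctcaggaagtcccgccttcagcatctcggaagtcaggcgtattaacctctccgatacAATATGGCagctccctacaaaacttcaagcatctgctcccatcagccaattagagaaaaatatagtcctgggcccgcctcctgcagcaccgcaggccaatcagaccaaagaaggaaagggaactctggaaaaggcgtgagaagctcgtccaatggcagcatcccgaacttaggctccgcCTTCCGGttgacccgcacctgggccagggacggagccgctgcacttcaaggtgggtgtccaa
Uqcrc1: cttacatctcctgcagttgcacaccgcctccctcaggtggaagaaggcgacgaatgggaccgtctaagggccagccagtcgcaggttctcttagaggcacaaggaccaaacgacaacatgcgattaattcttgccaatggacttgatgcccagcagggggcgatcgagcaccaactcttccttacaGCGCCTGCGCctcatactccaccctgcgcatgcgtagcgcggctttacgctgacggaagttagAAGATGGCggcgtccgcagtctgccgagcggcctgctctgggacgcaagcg
Atp5mc2: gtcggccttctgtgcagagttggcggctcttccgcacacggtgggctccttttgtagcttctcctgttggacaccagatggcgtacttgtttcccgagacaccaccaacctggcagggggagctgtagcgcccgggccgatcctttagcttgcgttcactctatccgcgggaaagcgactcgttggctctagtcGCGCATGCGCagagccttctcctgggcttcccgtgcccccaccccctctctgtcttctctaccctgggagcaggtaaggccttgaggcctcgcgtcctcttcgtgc
Atp5f1b: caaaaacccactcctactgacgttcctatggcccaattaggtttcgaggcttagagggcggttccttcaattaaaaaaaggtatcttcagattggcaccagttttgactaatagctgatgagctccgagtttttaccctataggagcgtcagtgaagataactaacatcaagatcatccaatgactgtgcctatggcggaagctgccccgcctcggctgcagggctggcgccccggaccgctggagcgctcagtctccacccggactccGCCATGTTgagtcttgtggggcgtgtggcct
Atp5me: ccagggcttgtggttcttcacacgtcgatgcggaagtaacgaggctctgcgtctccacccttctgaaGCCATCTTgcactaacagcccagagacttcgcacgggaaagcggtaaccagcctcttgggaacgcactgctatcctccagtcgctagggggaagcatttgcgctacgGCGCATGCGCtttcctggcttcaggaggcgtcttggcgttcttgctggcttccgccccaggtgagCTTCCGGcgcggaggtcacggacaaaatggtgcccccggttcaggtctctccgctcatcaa

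Ndufs8 has a YY1 match whose first base is at -191 and a GABP match at -12 from the start site, both on the opposite strand. Uqcrc1 has an NRF1 match at -64 and a YY1 match that begins at -1. The NRF1 letters of Atp5mc2 (at -56) and Atp5me (at -76) read as a match on both strands. Atp5f1b has a YY1 match at 20 bases into the transcript, and Atp5me also has a YY1 match at -183 and a GABP match at -11. Such matches were common in the group. Of the 76 genes, 67 had a promoter in the table. The NRF1 motif was found in 14 (20.9%), against 9.06% of the 8503 named genes that passed the filter and 4.25% of all 33469 promoters. GABP was found in 29.9% against 17% of named genes, YY1 in 34.3% against 9.44%, and ERR in 2.99% against 0.553%. At least 1 of the 4 motifs was found in 44 of the 67 (65.7%), against 30.5% of named genes. All 5 promoters shown hold a match, but of the 11 genes called higher in obese liver in both dyes 6 did (54.5%), and Ndufv2, Ndufv1, Ndufab1, Uqcrfs1 and Cox7a2l held none. By complex the share with any match ran from 5 of 11 in complex IV, where no promoter held the NRF1 letters, to 4 of 4 in complex II. A match is a string of letters in this window and was not tested as a binding site.

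In lean liver, the TU over vehicle log2 ratios of the respiratory chain genes lay between -0.20 and 0.54. No gene was called, a call being an adjusted p under 0.05 by limma with Benjamini-Hochberg adjustment over all features. The background was 0.203% of features called. At an unadjusted p under 0.05, 11 genes were higher and 0 lower, against 6.57% of features higher and 8.72% lower. The median log2 ratio over the 76 genes was 0.03 against -0.02 over all features, and 47 genes lay above 0 (61.8%, against 42.9% of features). The 4 lean arrays gave medians of -0.03, 0.05, 0.07 and 0.02, so the shift was smaller than the spread between arrays. Of the 76 genes, 14 were above 0 on all 4 arrays (background 12.2%) and 1 was below 0 on all 4 (background 18.4%).

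In obese liver the same genes were again near 0, and none was called (background 0.0124%). At an unadjusted p under 0.05, 18 were higher and 3 lower, against 6.53% and 6.1% of features. The median was 0.08 against -0.01 over all features, and 51 genes lay above 0 (67.1%, against 47.6%). The array medians were 0.04, 0.31, 0.01 and 0.08, the highest being on obese replicate 2, the array with the widest ratios. All 4 arrays were above 0 for 24 genes (background 13.2%) and below 0 for 5 (background 10.3%).

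By complex, the lean medians ran from -0.06 in the complex I assembly factors to 0.08 in complex II, and the obese medians from -0.07 in the assembly factors to 0.14 in complexes III and IV and in ATP synthase. No complex had all 4 arrays on the same side of 0 in both genotypes except complex IV, whose array medians were 0.03 to 0.07 in lean and 0.02 to 0.31 in obese liver. The sign of these shifts depended on the scaling. With median centring of each array instead of loess, all features had a median of -0.21 in lean liver. The 6 complex medians then ran from -0.57 to -0.37, and 11 genes were called, all lower (22.7% of features were called lower under this centring, 0.0705% under loess). Under the same scaling the obese median was 0.43 with no gene called, against 0.02 over all features.

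**Figure D1:**
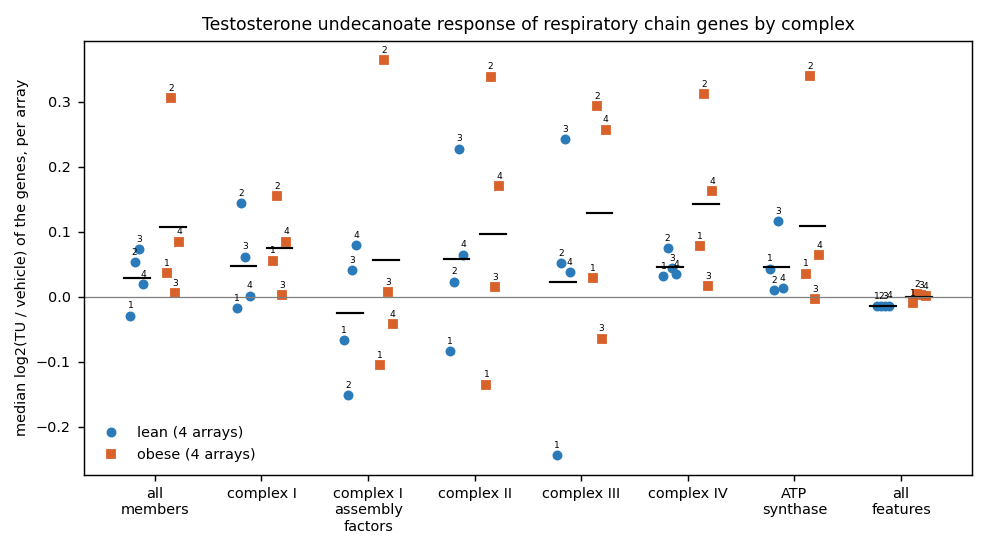
Median log2 ratio of TU over vehicle per array (y axis), for all 76 genes, for each complex and for all features (x axis). Circles are the 4 lean arrays, squares the 4 obese arrays, numbers are replicates and bars are means; for all members the 4 lean arrays sit between -0.03 and 0.07 and obese replicate 2 stands highest at 0.31.

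A set of 4 small subunits carried the highest TU ratios in both genotypes, although none was called. Ndufb2, an accessory subunit of the membrane arm of complex I, had log2 ratios of 0.41, 0.55, 0.71 and 0.47 on the lean arrays and 0.44, 0.87, 0.29 and 0.40 on the obese arrays. All 8 arrays were above 0 under loess, with fitted values of 0.54 ± 0.09 (SE, n = 4) in lean and 0.50 ± 0.09 in obese liver (limma adjusted p = 0.0692 and 0.202). Uqcr10, a small subunit of complex III, had ratios of 0.15, 0.56, 0.76 and 0.39 in lean and 0.61, 1.04, 0.59 and 0.64 in obese liver. Its fitted values were 0.46 ± 0.11 and 0.72 ± 0.11 (adjusted p = 0.105 and 0.164), and the groups overlapped.

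The other two belong to ATP synthase. Atp5f1e, the epsilon subunit of the central stalk, had ratios of 0.18, 0.43, 0.92 and 0.55 in lean and 0.39, 0.84, 0.47 and 0.51 in obese liver. Atp5me, the e subunit of the membrane part, had 0.18, 0.41, 0.88 and 0.27 in lean and 0.58, 1.14, 0.52 and 0.73 in obese liver. Every array was again above 0 for both genes. Lean replicate 3 and obese replicate 2 gave the highest ratio within their genotype for all 4 of these genes. Fitted values were 0.52 ± 0.11 and 0.55 ± 0.11 for Atp5f1e (adjusted p = 0.101 and 0.216) and 0.44 ± 0.13 and 0.74 ± 0.13 for Atp5me (adjusted p = 0.171 and 0.202). Dye bias stays in these ratios, and its part in them was not tested. With median centring the lean values of these 4 genes were at most 0.08 and the obese values between 0.92 and 1.27.

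These 4 genes stood near the threshold, and the setting decided whether they were called. Without obese replicate 2, 6 genes were called higher in lean liver (1.85% of features in that fit), although no lean array had been left out, of which Ndufb8, Ndufb9 and Atp5me were not above 0 with median centring: Ndufb2 (0.54, adjusted p = 0.00670), Uqcr10 (0.0278), Atp5f1e (0.0309), Ndufb8 (0.31, 0.0331), Ndufb9 (0.26, 0.0343) and Atp5me (0.0498). That fit uses a smaller pooled spread. With no background correction, Ndufb2 and Atp5f1e were called higher in lean liver (adjusted p = 0.0400 and 0.0458, with 0.817% of features) and Uqcr10 and Atp5me in obese liver (0.0469 and 0.0471, with 0.091%). With the lean arrays fitted alone, Ndufb2 was called higher (0.0332, with 0.386% of features).

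At the other end were genes with ratios below 0 that were not called either. Atp5f1a, the alpha subunit of F1, had ratios of -0.38, -0.11, -0.06 and -0.23 in lean and -0.24, -1.0, -0.32 and -0.05 in obese liver, below 0 on all 8 arrays. It was the only gene of the 76 below 0 on all 4 lean arrays, and its fitted values were -0.20 ± 0.13 and -0.40 ± 0.13 (adjusted p = 0.545 and 0.362). Uqcrc1, a core protein of complex III, had -0.35, 0.05, 0.02 and -0.34 in lean and -0.05, -1.15, -0.14 and -0.04 in obese liver, fitted at -0.16 ± 0.17 and -0.35 ± 0.17. Ndufv1, the flavoprotein that takes electrons from NADH, was fitted at -0.31 ± 0.15 in obese liver. Obese replicate 2 held the lowest ratio of all 3 genes in obese liver. Atp5if1, the inhibitor of ATP synthase, had ratios of 0.07, 0.05, -0.43 and -0.34 in lean and 0.19, 0.68, -0.06 and 0.05 in obese liver, so its arrays fell on both sides of 0.

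The TU response was also set between the genotypes, where a dye bias cancels. No gene was called (background 0.00415%, 1 feature), and 4 were higher in obese than in lean liver at an unadjusted p under 0.05 with 0 lower, against 5.29% and 2.63% of features (7.92% together). Uqcrh, the hinge protein of complex III, had ratios of -0.24, 0.02, -0.03 and -0.09 in lean and 0.19, 0.29, 0.24 and 0.29 in obese liver, a difference of 0.34 ± 0.07. Cox6c, a small subunit of complex IV, had -0.09, 0.12, 0.08 and 0.03 in lean and 0.24, 0.93, 0.49 and 0.33 in obese liver, a difference of 0.47 ± 0.14. In these 2 genes every obese array was above every lean array (background 3.28%), and in 0 of the genes was every obese array below every lean array (background 1.96%). The other two were Cox7c (0.46 ± 0.18, with obese replicate 1 left out as a non-uniform spot) and Ndufa5 (0.24 ± 0.10). The smallest adjusted p over the 76 genes was 0.615, and the median difference was 0.01 against 0.00 over all features (0.85 against 0.22 with median centring). Lowest were Cox4i1 (-0.37 ± 0.17), Atp5f1b (-0.33 ± 0.20) and Ndufs3 (-0.27 ± 0.19).

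Obese and lean liver were then compared within each dye, vehicle livers in Cy3 and TU livers in Cy5, as differences in normalised log2 intensity. Calls were made in both. In vehicle livers 19 genes (25%) were called, 14 higher and 5 lower in obese rats, against a background of 14.7% of features (7.34% higher, 7.39% lower). In TU livers 26 genes (34.2%) were called, 18 higher and 8 lower, against 20.4% (11.5% and 8.92%). Most of the 76 genes are bright, and bright features (mean log2 intensity above 9) were called more often than features as a whole. Away from the array edge and centre, 14.4% of bright features were called higher and 6.97% lower in vehicle livers. In TU livers these shares were 21.2% and 9.91%. The genes there had 23.7% and 1.69%, then 28.8% and 3.39%. The part of brightness in the excess of calls was not tested. With each array centred on its median in place of loess, the split was 0 higher and 9 lower in vehicle livers (2.77% and 10.3% of features) and 35 and 3 in TU livers (20.3% and 4.68%). With each channel centred on its own median no gene was called in either (0.195% and 0.0788% of features). With the replicate number as a block, which pairs the arrays in Cy5, 21 genes were called in TU livers (19.4% of features). Of the 26, 18 kept their call, and Ndufa10l1, Ndufs1, Ndufv1, Uqcr10, Uqcrc1, Cox5a, Atp5f1b and Atp5mg lost it (adjusted p 0.0504 to 0.105), while Ndufa9, Ndufs3 and Cox5b gained one. At an unadjusted p under 0.05 there were 27 genes in vehicle livers (35.5%, against 31.2% of features) and 33 in TU livers (43.4%, against 34.4%). The median over the 76 genes was 0.00 in vehicle and 0.09 in TU livers, against 0.01 over all features in both. In vehicle livers 38 genes lay above 0 (50%, against 51.3%) and in TU livers 49 (64.5%, against 52.7%).

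In all, 11 genes were called higher and 5 lower in both dyes, and 0 in opposite directions. These are 14.5% and 6.58% of the 76 genes, against 5.06% and 5.34% of features, and both dyes are read from the same spots. Every obese array was above every lean array for 16 genes in vehicle livers (background 13.2%) and 18 in TU livers (15.3%). Every obese array was below for 5 (12.7%) and 3 (11.8%). The obese arrays were more variable: the median SD per gene was 0.33 on the obese and 0.087 on the lean arrays in Cy3, larger in obese for 71 of 76 genes, and 0.23 against 0.14 in Cy5. When each array was left out in turn, 10 of the 19 calls in vehicle livers and 13 of the 26 in TU livers were made in all 8 fits. Leaving out lean replicate 1, 2 or 3 lowered the vehicle count from 19 to 12 each time. The share of all features called fell in the same fits, from 14.7% to 6.42%, 6.61% and 6.24%. The TU count fell from 26 to 15 without lean replicate 1 and to 16 without lean replicate 2, lean replicate 4 or obese replicate 4. The share of all features fell from 20.4% to 12.8% in the first of these fits and to 14.1%, 12.9% and 16.3% in the others.

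**Figure D2:**
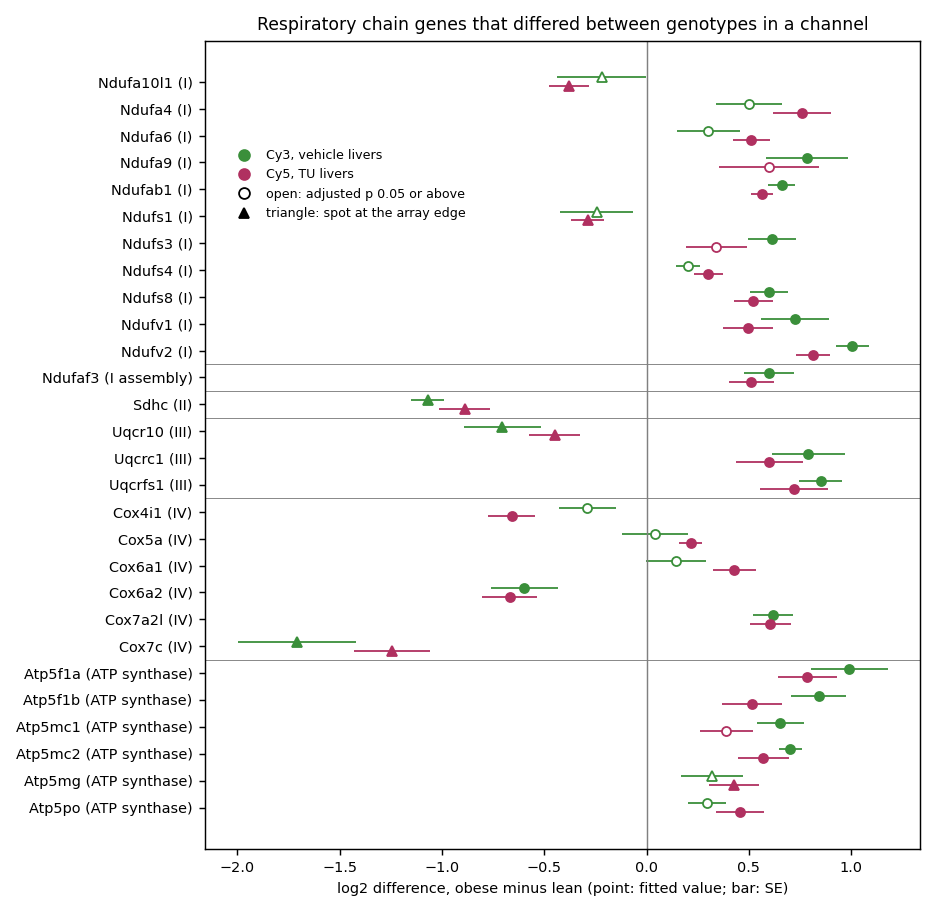
Log2 difference in intensity, obese minus lean (x axis), for 28 genes called in a dye (y axis, grouped by complex), with points for the fitted value and bars for its SE. Green is Cy3 (vehicle), red Cy5 (TU), open symbols are not called and triangles are spots at the array edge; the 14 genes called higher in vehicle livers run from 0.60 (Ndufaf3) to 1.01 (Ndufv2), and with each channel centred on its median 9 of those 14 remain above 0.

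In complex I, 6 genes were called higher in vehicle livers and 7 in TU livers, with changes of sign under other scalings given beside the genes. Ndufv2, an iron-sulphur subunit of the NADH-binding module, had log2 intensities of 13.87, 13.86, 14.00 and 14.18 in lean and 15.04, 15.03, 14.95 and 14.91 in obese vehicle livers. In TU livers it had 14.11, 14.04, 14.08 and 13.84 in lean and 14.90, 14.80, 14.69 and 14.93 in obese rats. The groups did not overlap in either dye. The differences were 1.01 ± 0.08, a 2.01-fold linear change (adjusted p = 0.000626), and 0.81 ± 0.08 (0.000879), and the call was made in all 8 fits that left out an array. With channel medians the differences were 0.25 and 0.06. Its neighbour in the module, Ndufv1, differed by 0.73 ± 0.17 and 0.49 ± 0.12 (0.0282 and 0.0259), but the Cy3 call was lost without any 1 of the lean arrays or obese replicate 4 and the Cy5 call without lean replicate 1, 3 or 4, and it was below 0 in Cy5 with each channel centred on its median (-0.10).

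Ndufs8, an iron-sulphur subunit next to the ubiquinone site, had 11.19, 11.03, 11.26 and 11.16 in lean and 11.72, 11.99, 11.62 and 11.71 in obese vehicle livers. Its differences were 0.60 ± 0.09 and 0.52 ± 0.09 (adjusted p = 0.00700 and 0.00773). A second probe of the gene gave 0.54 and 0.39. Ndufab1, the mitochondrial acyl carrier protein, had 13.09, 13.19, 13.29 and 13.16 in lean and 13.75, 13.96, 13.83 and 13.84 in obese vehicle livers, and differed by 0.66 ± 0.07 and 0.56 ± 0.05 (0.00137 and 0.000733). Neither gene overlapped between genotypes in either dye, but both were slightly below 0 in both dyes with each channel centred on its median, and with the scanner's processed signals neither was called in either dye (adjusted p 0.0571 to 0.106). Ndufs3, of the ubiquinone-binding module, and Ndufa9, an accessory subunit, were called in vehicle livers (0.61 ± 0.12 and 0.78 ± 0.20), and in TU livers only under some alternatives such as the replicate block. The Ndufs3 call was lost without lean replicate 1 or 2 and its sign turned with channel medians (-0.10), while the Ndufa9 call, whose value stayed above 0 in Cy3 under every scaling tried and was -0.06 in Cy5 with channel medians, was made in only 1 of the fits without an array, that without obese replicate 1.

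In TU livers alone, 3 complex I genes were called higher: Ndufa4 (0.76 ± 0.14), which is now known as a subunit of complex IV, Ndufa6 (0.51 ± 0.09) and Ndufs4 (0.30 ± 0.07), an accessory subunit of the NADH-binding module. Ndufs4 stayed above 0 in both dyes under every scaling tried, and it was also called in vehicle livers with the scanner's processed signals (0.81), 16-channel quantile scaling (0.21) and no background correction (0.25). The Ndufs4 call was lost without lean replicate 1, 3 or 4 or obese replicate 2 or 4. With each channel centred on its median, Ndufa4 and Ndufa6 were below 0. In vehicle livers these 3 genes had differences of 0.50, 0.30 and 0.20, and the difference between the dyes is the TU response by genotype given above, in which no gene was called. Of the 5 assembly factors, Ndufaf3 was called higher in both dyes (0.60 ± 0.12 and 0.51 ± 0.11). Its intensities were 9.46, 9.46, 9.52 and 9.47 in lean and 9.98, 10.43, 9.82 and 10.08 in obese vehicle livers. The Cy3 call of Ndufaf3 was lost without any of the 4 lean arrays (adjusted p up to 0.0595). Ndufaf5, the brightest of the 5, had -0.19 ± 0.18 and 0.01 ± 0.17.

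Ndufs1 and Ndufa10l1 were called lower in TU livers alone (-0.29 and -0.38), from spots at the array edge. Ndufs1 is the largest iron-sulphur subunit of the NADH-binding module. Ndufs1 lay above 0 with the scanner's processed signals (0.25) and Ndufa10l1 with median centring (0.04). The Ndufa10l1 call was lost without any 1 of the lean arrays, and the Ndufs1 call was made only without lean replicate 3 or obese replicate 1.

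In complex II, which oxidises succinate and is encoded wholly in the nucleus, all 4 genes had differences below 0 in both dyes, and 1 was called. Sdhc, which anchors the enzyme in the membrane, had 12.40, 12.40, 12.26 and 12.35 in lean and 11.13, 11.32 and 11.39 in obese vehicle livers, with obese replicate 2 left out as non-uniform. The groups did not overlap, and the differences were -1.07 ± 0.08 and -0.89 ± 0.13 (adjusted p = 0.000845 and 0.00446). With the scanner's processed signals they were -0.51 and -0.41 and not called. The catalytic subunits Sdha (-0.21 ± 0.12 and -0.18 ± 0.22) and Sdhb (-0.24 ± 0.15 and -0.32 ± 0.18, from 2 obese arrays) and the other anchor Sdhd (-0.05 ± 0.17 and -0.04 ± 0.19) were not called. The Sdhc and Sdhb spots are at the array edge, where other bright spots also read lower on the obese slide.

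In complex III, 2 core genes were called higher and a small subunit lower, with the signs under other scalings given beside each. Uqcrfs1, the Rieske iron-sulphur protein, had 13.22, 13.16, 13.32 and 13.50 in lean and 14.32, 13.98, 14.04 and 14.25 in obese vehicle livers. It differed by 0.85 ± 0.11 and 0.72 ± 0.17 (adjusted p = 0.00294 and 0.0197), and its Cy5 value was -0.02 with channel medians and lost its call without lean replicate 2 or 4. Uqcrc1 had 9.63, 9.44, 9.34 and 9.63 in lean and 10.37, 10.75, 9.85 and 10.22 in obese vehicle livers, with differences of 0.79 ± 0.18 and 0.60 ± 0.16 (0.0273 and 0.0353). This gene stayed above 0 under every scaling tried, but its calls were lost without any 1 of the lean arrays or obese replicate 4. Uqcr10, the gene with a high TU ratio, had 15.97, 15.86, 15.60 and 15.87 in lean and 15.57, 14.64, 15.08 and 15.19 in obese vehicle livers, and differed by -0.70 ± 0.19 and -0.45 ± 0.12 (0.0442 and 0.0384). The Uqcr10 difference in TU livers was 0.03 with the scanner's processed signals and 0.01 with median centring, and its Cy3 call was made only without obese replicate 1 or 2 and its Cy5 call only without obese replicate 1.

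Complex IV held calls in both directions. Cox7a2l, a factor that joins complexes III and IV into supercomplexes, had 10.94, 10.85, 10.98 and 11.11 in lean and 11.64, 11.40, 11.52 and 11.80 in obese vehicle livers. It was higher by 0.62 ± 0.10 and 0.61 ± 0.10 (adjusted p = 0.00806 and 0.00528), with no overlap and above 0 under every scaling tried (0.02 and 0.01 with channel medians). Cox7c, a small structural subunit, had 11.97, 11.81, 11.92 and 11.96 in lean and 9.60, 10.08 and 10.94 in obese vehicle livers, with obese replicate 1 left out as non-uniform. It was lower by -1.71 ± 0.29 and -1.25 ± 0.19 (0.0134 and 0.00547), from a spot at the array edge. Cox4i1, the common form of subunit 4, was called in TU livers alone (-0.66 ± 0.11, adjusted p = 0.00667) and had 13.67, 13.79, 14.06 and 13.93 in lean and 13.07, 13.06, 13.25 and 13.43 in obese TU livers.

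The tissue isoforms of complex IV differed in what they showed. Cox6a1, the form of liver and most tissues, was higher in TU livers (0.43 ± 0.10, adjusted p = 0.0247; -0.46 with channel medians, call lost on dropping lean replicate 1, lean replicate 2 or obese replicate 4) and had 0.14 ± 0.15 in vehicle livers. Its counterpart of heart and skeletal muscle, Cox6a2, was lower in both dyes (-0.60 ± 0.16 and -0.67 ± 0.14; 0.0485 and 0.0123) under every scaling tried. Its intensities were 8.95, 8.59, 8.88 and 9.25 in lean and 8.55, 8.07, 8.49 and 8.17 in obese vehicle livers, and the groups did not overlap. The Cy3 call of Cox6a2 was made only without lean replicate 2 or obese replicate 1. Of 6 striated muscle markers 3 passed the filter, with Mb (myoglobin) lower in obese liver in both dyes (-0.97 and -1.02) and Acta1 (0.13 and 0.11) and Tnni2 (0.77 and 0.69) not called; the part of muscle RNA in the Cox6a2 value was not tested. Cox4i2 (-0.03 and -0.25), Cox8a (0.28 and 0.18) and the muscle form Cox8b (-0.18 and -0.06) were not called. Cox5a, a nuclear subunit with no tissue form, was called in TU livers alone (0.22 ± 0.06; -0.54 with channel medians), and this call was lost without lean replicate 1, 2 or 4 or obese replicate 3 or 4.

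ATP synthase had the highest median of the complexes under loess and no gene called lower in either dye, but its sign depended on the scaling. Its 15 genes had medians of 0.25 in vehicle and 0.27 in TU livers, with 4 and 5 genes called higher. The vehicle median was -0.01 with the scanner's processed signals, -0.20 with median centring and -0.54 with channel medians, and the TU median -0.53 with channel medians. The catalytic pair had the highest differences in vehicle livers. Atp5f1a had 12.35, 12.21, 12.20 and 12.35 in lean and 12.79, 13.77, 13.18 and 13.34 in obese vehicle livers. Atp5f1b, the beta subunit that carries the catalytic sites, had 12.76, 12.68, 12.63 and 12.89 in lean and 13.67, 13.89, 13.26 and 13.51 in obese vehicle livers. Neither overlapped between genotypes. Atp5f1a differed by 0.99 ± 0.19 and 0.78 ± 0.14 (adjusted p = 0.0149 and 0.00861) and stayed above 0 under every scaling tried, losing its Cy3 call without lean replicate 2 or 3. Atp5f1b differed by 0.84 ± 0.13 and 0.52 ± 0.15 (0.00794 and 0.0429), with -0.19 in TU livers under channel medians, and its Cy5 call was made only without obese replicate 2 or 3.

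The genes Atp5mc1 and Atp5mc2 encode the same mature c subunit of the proton-driven ring with different import sequences. Atp5mc2 had 15.37, 15.38, 15.48 and 15.46 in lean and 16.06, 16.24, 16.10 and 16.10 in obese vehicle livers. It differed by 0.70 ± 0.06 and 0.57 ± 0.13 (adjusted p = 0.000667 and 0.0167), but a dimmer second probe, with 1 non-uniform obese spot, went the other way (-0.63 and -0.61). Over the mean of both probes the gene was not called. Atp5mc1 was called in vehicle livers (0.65 ± 0.11, 0.0112) and had 0.39 ± 0.13 in TU livers (0.0692), with no overlap in either dye. With channel medians, Atp5mc1 was below 0 in Cy3 and Atp5mc2 in both dyes. In TU livers alone Atp5po, the stalk subunit OSCP, and Atp5mg, the g subunit, were called higher (0.46 and 0.43; -0.38 and -0.41 with channel medians). The Atp5po call was made only without lean replicate 3 or obese replicate 1, and the Atp5mg call only without lean replicate 3 or obese replicate 3. Atp5if1 had -0.55 ± 0.16 in vehicle livers (0.0560), just outside the threshold.

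**Figure D3:**
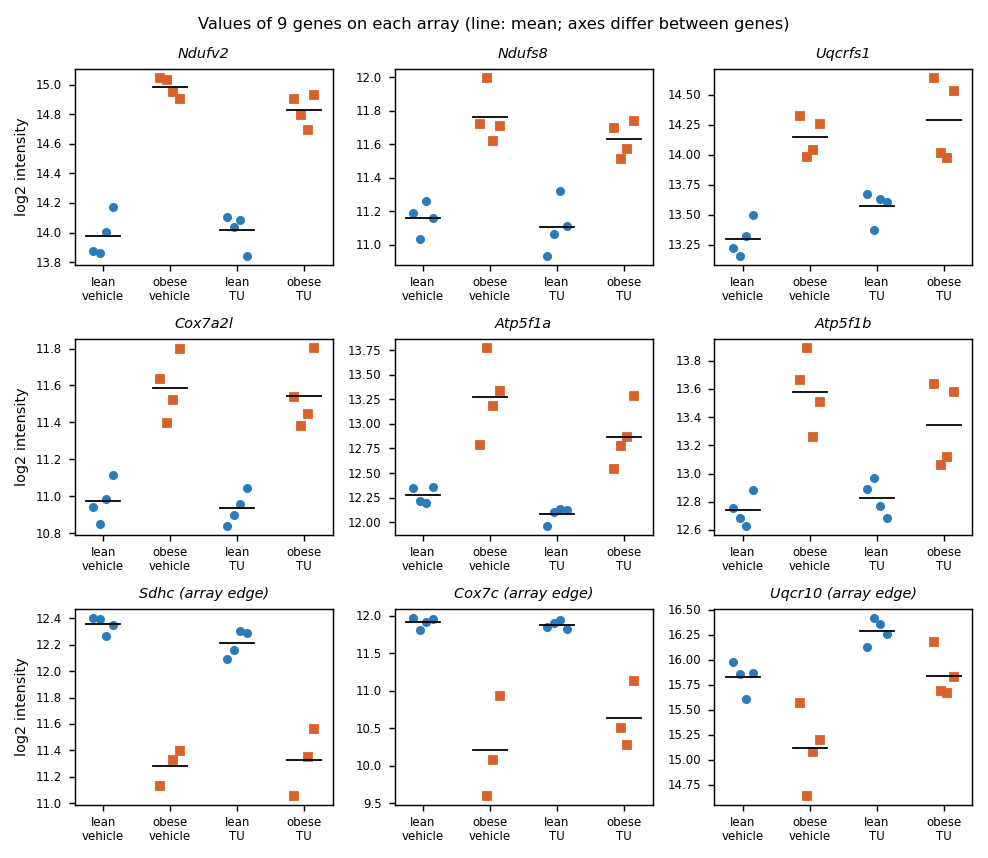
Normalised log2 intensity on each array (y axis, its range differing between panels) for 9 genes in lean and obese vehicle (Cy3) and TU (Cy5) livers (x axis); circles are lean arrays, squares obese arrays and lines group means. In the 6 genes of the upper panels all 4 obese arrays sit above all 4 lean arrays in both dyes, for Ndufv2 at 14.91 to 15.04 against 13.86 to 14.18 in vehicle livers; with each channel centred on its median Ndufs8 in both dyes, and Uqcrfs1 and Atp5f1b in Cy5, were below 0, while the lower panels show 3 genes whose spots lie at the array edge.

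Where a spot lay on the array went with the sign of these differences. The array has 532 rows and 85 columns, and 12 of the 76 genes have their spot within 30 rows or 2 columns of an edge, 5 in the centre and 59 in the rest. The limits of the edge and centre were drawn after the values were seen, so the shares below describe these data only. Among bright features (mean log2 intensity above 9) the median obese minus lean difference in Cy3 was -0.42 at the edge, with 24.4% called lower, against 0.06 in the rest, with 6.97% lower and 14.4% higher. In Cy5 it was -0.36 at the edge, with 27% lower, against 0.10 in the rest, with 9.91% lower and 21.2% higher. Within 5 rows of an edge 61.2% of bright features were called lower in Cy3, with a median of -1.31. The genes followed the same division. At the edge 0 of 12 were called higher and 4 lower in vehicle livers, and 1 and 6 in TU livers. In the rest 14 of 59 were called higher (23.7%) and 1 lower in vehicle livers, and 17 (28.8%) and 2 in TU livers. All 11 genes called higher in both dyes lie in the rest, and 4 of the 5 called lower in both, among them Sdhc, Uqcr10 and Cox7c, lie at the edge. Cox6a2 lies in the rest. The part of array position in these edge values was not tested further. A fit on probes away from the edge and centre, chosen after seeing the data, held 61 of the genes. It called 15 higher and 3 lower in vehicle livers, against 10.2% and 6.14% of its features. In TU livers it called 17 and 4, against 15.2% and 8.22%.

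**Figure D4:**
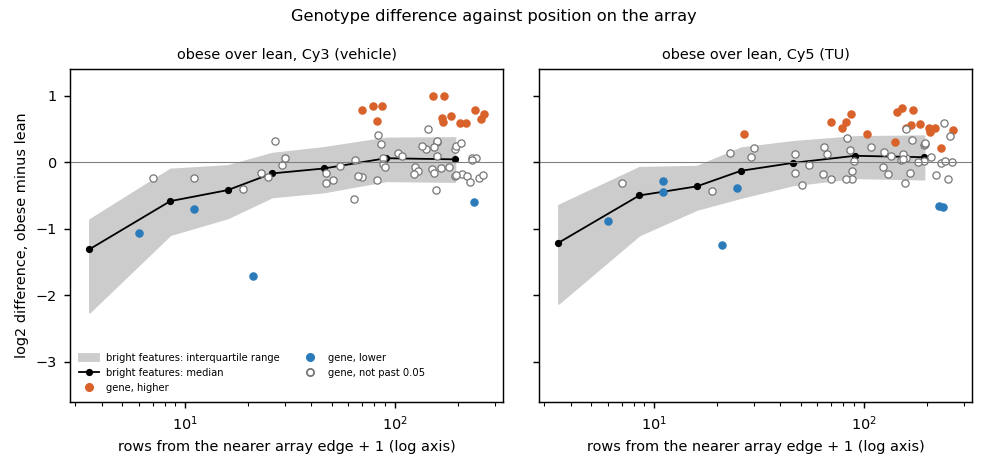
Log2 difference, obese minus lean (y axis), of the genes outside the array centre against the number of rows between its spot and the nearer array edge, plus 1 (x axis, log scale), for vehicle (left) and TU livers (right). The line and grey band are the median and the interquartile range of bright features, filled points are genes called higher or lower; the line starts at -1.31 in the outermost rows in Cy3 and the genes called higher in vehicle livers all lie further in, where the signs of 5 turn with channel medians.

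The 5 genes in the centre were not called, and their means cannot be read in Cy3 or Cy5 because of the dark spots on both replicate 1 arrays. Atp5pf, the F6 subunit, read 7.09 on lean replicate 1 and 6.98 on obese replicate 1 in Cy3, against 12.73 to 14.29 on the other 6 arrays, so that its difference had an SE of 2.01. Ndufb3 read 7.37 on obese replicate 1 (difference -1.40 ± 1.52), and Ndufb10 10.46 and 7.13 on the replicate 1 arrays. The TU ratios of these 3 genes, taken within a spot, lay between -0.18 and 0.10 on those arrays. Atp5pf on both arrays, and Ndufb3 and Ndufb10 on obese replicate 1, read close to the dim gene Cox8b (mean 6.98). Their ratios there say little about TU. A fit without both replicate 1 arrays was also chosen after seeing the data. It called 20 genes in vehicle livers (13 higher, 7 lower, 14 of them among the 19), against 4.95% of features higher and 6.2% lower. In TU livers it called 27 (17 and 10, 18 of them among the 26), against 14.6% and 11.1%. In that fit Ndufb6 (0.52 and 0.45) and Atp5f1c (0.71 and 0.64), 2 of the 5 centre genes, were called higher in both dyes.

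**Figure D5:**
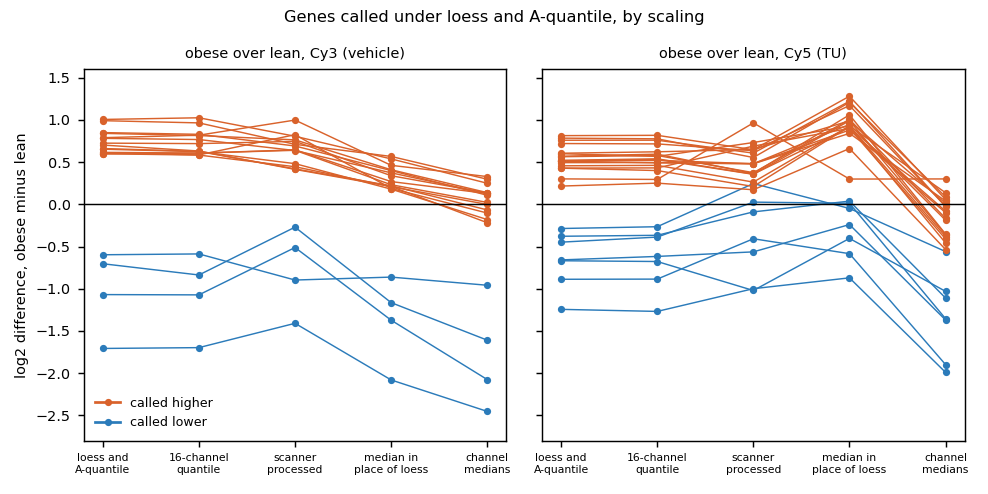
Log2 difference, obese minus lean (y axis), for genes called under loess with A-quantile scaling, under that scaling and 4 others (x axis), for vehicle (left) and TU livers (right); each line is a gene, orange where called higher and blue where called lower. All 14 genes called higher in vehicle livers stay above 0 under 16-channel quantile, scanner processed and median scaling and 5 fall below 0 with channel medians; in TU livers 12 of 18 fall below 0 with channel medians, and among those called lower 2 rise above 0 with the scanner's processed signals and 2 with median centring.

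Other genes of the pathway were read from lists in the same fits. In the TU comparisons no gene of 8 further lists (regulators, assembly factors, electron carriers, citric acid cycle, carriers and both ribosomes) was called in either genotype. The background there was 0.203% of features in lean and 0.0124% in obese liver. Between genotypes it was 7.34% of features higher and 7.39% lower in vehicle livers, and 11.5% and 8.92% in TU livers. The counts of the lists below were not tested against these shares. Among 17 regulators of mitochondrial gene expression, 0 were called higher and 1 lower in obese vehicle livers, and 1 and 1 in TU livers. Ppargc1a, which encodes PGC-1 alpha, had -0.09 ± 0.05 and -0.03 ± 0.06 and was not called, nor were Ppargc1b (0.22 and 0.24), Nrf1 (0.11 and 0.16), Esrra (-0.47 ± 0.31 and -0.40 ± 0.28) and Tfam (-0.88 ± 1.08 and -0.96 ± 1.10), the packaging factor of mitochondrial DNA. The gene called lower was Mterf1, a mitochondrial transcription termination factor (-2.27 ± 0.19 and -2.38 ± 0.13). Gabpa, a subunit of GABP, was higher in TU livers (0.41 ± 0.08, adjusted p = 0.0105). Cycs, the cytochrome c that carries electrons from complex III to IV, was higher in both dyes (0.60 ± 0.15 and 0.97 ± 0.21, adjusted p = 0.0386 and 0.0157). Of the 18 electron carriers and entry enzymes, 4 were higher and 2 lower in vehicle livers and 6 and 2 in TU livers. Sqor, which feeds electrons from sulphide to ubiquinone, was higher (0.98 and 0.79) and Suox, sulphite oxidase, lower (-1.38 and -1.55). Of 22 assembly factors of complexes II to V, 3 were higher and 1 lower in each dye. Of 17 citric acid cycle genes, 3 were higher and 4 lower in vehicle livers and 3 and 2 in TU livers. Subunits of the pyruvate dehydrogenase complex were called in both directions, Dlat higher (1.48 and 0.88) and Pdhb lower (-1.12 and -1.23). Of 7 carriers, Slc25a4, an ADP/ATP exchanger, was lower in both dyes (-0.47 and -0.76). The 63 mitochondrial ribosome genes had medians of 0.03 and 0.10, with 7 higher and 5 lower in vehicle and 8 and 6 in TU livers. Of 75 cytosolic ribosome genes, 4 were higher and 12 lower in vehicle and 4 and 7 in TU livers, with medians of -0.29 and -0.16. Scaling alternatives and fits without an array were not run gene by gene on these lists. The array positions of their spots are not given here either. The part of edge or centre position in their values, Mterf1 and Tfam included, was not tested.

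Markers of cell types moved in some of the same comparisons. In lean liver the 9 hepatocyte markers had a median TU ratio of 0.29 (0.14 to 0.54 by array), with Ambp called higher (0.76, limma adjusted p = 0.0325), and in obese liver -0.02 with none called. The 4 measured erythroid markers had 0.89 in lean liver (0.72 to 1.10 by array), with Hbb-b1 called higher (1.39, 0.0407), and -0.28 in obese liver. The background was 0.133% of features called higher in lean and 0.0124% in obese liver. These marker shifts stand beside medians of 0.03 and 0.08 for the respiratory chain genes. Between genotypes, 3 of 9 hepatocyte markers were higher and 0 lower in vehicle livers, and 2 higher and 1 lower in TU livers. The background for these marker counts was 7.34% of features higher and 7.39% lower in vehicle livers, and 11.5% and 8.92% in TU livers. For macrophage markers the counts were 0 and 1, then 1 and 2, of 9. Of the 4 erythroid markers 2 were higher in vehicle livers, with a median of 1.00, and 0 were called in TU livers. The stellate cell list had 1 higher and 1 lower of 6 in vehicle livers and 2 and 1 in TU livers, and the endothelial list 0 and 0, then 0 and 2, of 4. The part of cell composition in the respiratory chain values was not tested.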

How the data were processed

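Vehicle and TU liver RNA shared each of 8 Agilent rat arrays. Per the file headers, the deposited spot and background intensities are median pixel values from Agilent Feature Extraction 10.7.3.1. The deposited processed intensities were background-subtracted, detrended and dye-normalized by the scanner software, and the deposited log10 ratios are Cy5 over Cy3, per the file headers. The other deposited columns are flags per spot. The authors' series matrix holds log2 ratios (slope 3.33 to 3.38 on the scanner's log10 ratios, so TU over vehicle; column medians 0.0462 to 0.140), with normalization unstated in the labels, and was used as a check only. Array data give no read depth, and the 8 arrays limit the precision.

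Signals were corrected with normexp (offset 50) and loess in limma 3.58.1 (R 4.3.3). Control and non-uniform spots were left out, and A-quantile scaling was applied before channels were compared. Probes had to be well above background in either channel on 4 of 8 arrays, and the brightest probe stood for a gene. RefSeq (GRCr8) accessions named 16815 of 41012 probes. Probe sequences were not used here, so cross-hybridisation was not checked. Lean and obese means were fitted with lmFit and eBayes, on all 8 arrays for ratios and on the 8 channels of a dye for intensities, and adjusted over all features at 0.05. On simulated data of 23814 features with 100 changed at each size, the obese TU fit recovered 100% of those changed by 1 log2 unit and 98% by 2. The vehicle comparison recovered 80% and 93%. False calls numbered 13 and 14. Smaller changes were not simulated, and the fitted TU values of the genes were at most 0.74. Recovery at the sizes seen for TU is therefore not known from this.

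The genes, lists and tests were chosen with earlier results of these data known. Genes named with values are those called in a comparison (up to 15 per comparison by adjusted p), the 3 highest and lowest in each of the 5 comparisons, the brightest of each complex, the isoform pairs and the complex II genes. The other named genes called in a dye, Uqcrh, Ndufa5, Ndufb6, Ndufb8, Ndufb9, Ndufb10, Atp5f1c and Atp5pf were named after their values were seen. The alternatives tried were other background corrections, scalings, filters and probe rules, a replicate block and leaving out arrays. Same-numbered lean and obese arrays deviated together in Cy5 (correlations 0.61, 0.17, 0.45 and 0.25), but not throughout in Cy3 or the ratios. The highest Cy5 correlation with another number was -0.23, 0.10, 0.43 and 0.21, so replicates 3 and 4 were closest to their own number only narrowly. The values of 1 gene, which is in the counts, are not reported here.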

Additional observations from a re-analysis of the deposited data

Results flagged for a closer look

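Of 94 groups of 4 arrays tested for a single outlying array, 6 had one, where about 1 in 20 is expected by chance (Dixon's ratio of the gap to the range, above its critical value for 4 values). Of these, 3 were Ndufb3, whose spot lies in the array centre: replicate 1 was lowest in lean Cy3 (0.965; 12.8 against 14.1 to 14.2), obese Cy3 (0.879; 7.37) and obese Cy5 (0.876; 7.46). Uqcr10 (0.889) and Uqcrc1 (0.915) had outlying TU ratios on obese replicate 2, at 1.04 and -1.15. Ndufa6 was highest on obese replicate 3 in Cy5 (0.849), at 15.98 against 15.87 to 15.89. No gene had opposite signs of the TU ratio in every lean and every obese array.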

How the results depend on the processing

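With each channel centred on its median, the obese minus lean difference turned below 0 in Cy3 for Atp5mc2 (-0.22), Ndufab1 (-0.067), Ndufs8 (-0.0014), Atp5mc1 (-0.18) and Ndufs3 (-0.10). In Cy5 it did so for 12 genes: Ndufab1 (-0.17), Ndufa6 (-0.36), Ndufs8 (-0.081), Ndufa4 (-0.025), Atp5mc2 (-0.35), Uqcrfs1 (-0.024), Ndufv1 (-0.10), Atp5f1b (-0.19), Cox5a (-0.54), Cox6a1 (-0.46), Atp5mg (-0.41) and Atp5po (-0.38). That setting called 0 genes in each dye, with medians of -0.68 and -0.62. Median centring in place of loess called 11 genes in lean TU and 9 in Cy3, and moved the medians to -0.44 (TU, lean), 0.43 (TU, obese), 0.85 (their difference), -0.39 (Cy3) and 0.52 (Cy5). No background correction called 2 genes with TU in each genotype, and the lean arrays alone called 1. The scanner's processed signals called 17 of the 76 genes in Cy5, where the background rose to 31.1% of features from 20.4% in the main fit. The excess of calls over background seen in the main fit was therefore absent in Cy5 under that setting. The cause of these changes was not tested. Leaving out 1 array at a time gave 0 to 6 calls for TU in lean, 12 to 28 in Cy3 and 15 to 33 in Cy5. The share of all features called in these fits ran from 0.00415% to 4.61%, from 6.24% to 20.6% and from 12.8% to 31.5%. With a replicate block, 8 genes were called in Cy3 (7 higher, 1 lower, with 6.02% of features), where the numbers did not pair the arrays. In Cy5 it called 21 (with 19.4% of features), and 18 of the 26 kept their call. The fit of a genotype's arrays alone could not be run for the obese minus lean response. Stability was counted only over the 15 called genes with the smallest adjusted p in each dye. Of their 670 values under an alternative, 590 kept their direction and their side of the threshold, 69 lost the call and 11 changed sign. The weaker calls of each dye, such as Ndufa9 and Uqcr10 in Cy3 and Atp5mg and Atp5po in Cy5, are not in this count. Genotype and slide cannot be told apart, and signal over background sets the limit for dim genes such as Cox8b and Ndufs4.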
